A study of Bos taurus with 30 samples.

Results

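The microRNAs (miRNAs) miR-199 and miR-214 were measured by small RNA sequencing in the testes of bull calves raised on either of 2 diets. Members were all entries of the deposited table named miR-199 or miR-214, with any letter or arm and no further digit. They are 5 of the 1030 listed bovine miRNAs, namely miR-199a-3p, miR-199a-5p, miR-199b, miR-199c and miR-214, and all 5 passed the filter on low values. The study set 15 Holstein-Friesian calves on a High plane of nutrition against 15 on a Moderate one, with 1 testis library per calf. From 2 to 12 weeks of age, High calves drank 1.5 kg of milk replacer in 10 L a day with concentrate at will, for an expected gain of 1.0 kg per day. Moderate calves drank 0.5 kg of milk replacer in 4 L a day and ate 0.5 kg of concentrate, for an expected gain of 0.5 kg per day. Breed, sex, tissue and feeding period were thus shared by both groups. The labels used here do not give the age at sampling.

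A miRNA hairpin is cut into a duplex whose strands, the 5p and 3p arms, can each be loaded into the silencing complex, where a strand lowers the translation and stability of the mRNAs it pairs with. In mouse and human, miR-199a and miR-214 are cut from a long non-coding RNA transcribed opposite a dynamin gene, and miR-199b lies opposite another dynamin gene. They are known from mesenchymal cells such as fibroblasts, in connective tissue development and in fibrosis. The mouse transcription factor Twist1 drives the host RNA of miR-199a and miR-214. Both arms of miR-199a are found as mature miRNAs in mammals.

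In the RefSeq gene table of the cattle assembly ARS-UCD2.0, MIR214 and MIR199A-1 both lay within the span of DNM3, which encodes a dynamin, a GTPase that pinches vesicles off membranes. Both also overlapped the long non-coding RNA LOC132342463, and 5685 bases separated the pair. A further copy, MIR199A-2, overlapped DNM2, and MIR199B overlapped DNM1, both of which encode dynamins too. MIR199C overlapped NUP88, a nuclear pore gene, so the description as a group lying with dynamin genes holds for 4 of the 5 miRNA genes. The table used gives no strand. The mature names do not say which of the 2 miR-199a copies a read came from, and miR-199b, miR-199c and miR-214 are listed without an arm.

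The libraries held 6.0003 to 19.975 megareads (M reads), with 24 under 12 M reads (11 High, 13 Moderate) and 6 above (4 High, 2 Moderate). Values are the deposited ones, CPM under TMM scaling (a trimmed mean of log ratios between libraries), and are called units here. Diet is the diet characteristic of each label. In 18 of the 30 libraries the title names the opposite diet, and 12 libraries (6 per diet) carry the same diet in both places. Moderate replicate 5 stood apart. The share of miR-10b in its reads was 84.8%, where the remaining 29 libraries had 37.0% to 49.0%, and it listed 476 miRNAs above 0, where they listed 579 to 682. It was the lowest library for each of the 5 miRNAs, and the comparisons between diets are given with and without it. In bulk tissue such as this, fewer stromal cells and less of these miRNAs per cell cannot be told apart.

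miR-199a-3p, the arm from the 3′ side of the hairpin, was the most abundant member with an arm in its name. Over High libraries it ranged from 3289 to 4304 units with a median of 3567, and over Moderate libraries from 1785 to 4483 units with a median of 3982. The ranges overlapped almost fully, and the Moderate median exceeded 12 of 15 High libraries. It averaged 3638 ± 311 units in High and 3806 ± 678 units in Moderate testes (SD, n = 15 each), or 0.392% of all reads in High and 0.381% in Moderate libraries. Without replicate 5 the Moderate mean was 3951 ± 398 units (SD, n = 14) and the Moderate share 0.405%, so both then lay above the High ones.

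miR-199a-5p, the opposite arm of miR-199a, was the member whose diets lay farthest apart. Over High libraries it ranged from 585 to 768 units with a median of 686. Over Moderate libraries it ranged from 444 to 891 units with a median of 782. The Moderate median exceeded all 15 High libraries, while the ranges still overlapped. The mean was 679 ± 52.0 units in High and 753 ± 112 units in Moderate testes (SD, n = 15 each), or 775 ± 74.5 units in Moderate testes without replicate 5 (n = 14). The lowest Moderate library other than replicate 5 held 653 units.

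miR-199b, from the gene within DNM1, had High libraries between 421 and 626 units with a median of 505, and Moderate libraries between 197 and 589 units with a median of 538. Here the highest library of all was a High one. Most libraries of both diets shared a range, with Moderate replicate 5 far below every High library and the next lowest Moderate library at 442 units. miR-214, the neighbour of MIR199A-1, had High libraries between 197 and 271 units with a median of 237, and Moderate libraries between 194 and 296 units with a median of 250.2. Of the High libraries, 10 of 15 lay below the Moderate median for miR-199b and 13 of 15 for miR-214. The means of miR-199b were 517 ± 49.8 units in High and 509.2 ± 99.4 units in Moderate testes, and those of miR-214 were 231 ± 21.9 units in High and 247 ± 26.3 units in Moderate testes (SD, n = 15 each). Without replicate 5 the Moderate means were 532 ± 51.1 units for miR-199b, then above the High mean, and 250.4 ± 22.8 units for miR-214 (SD, n = 14). For miR-214 alone, Moderate replicate 5 lay close to the other low libraries.

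**Figure D1:**
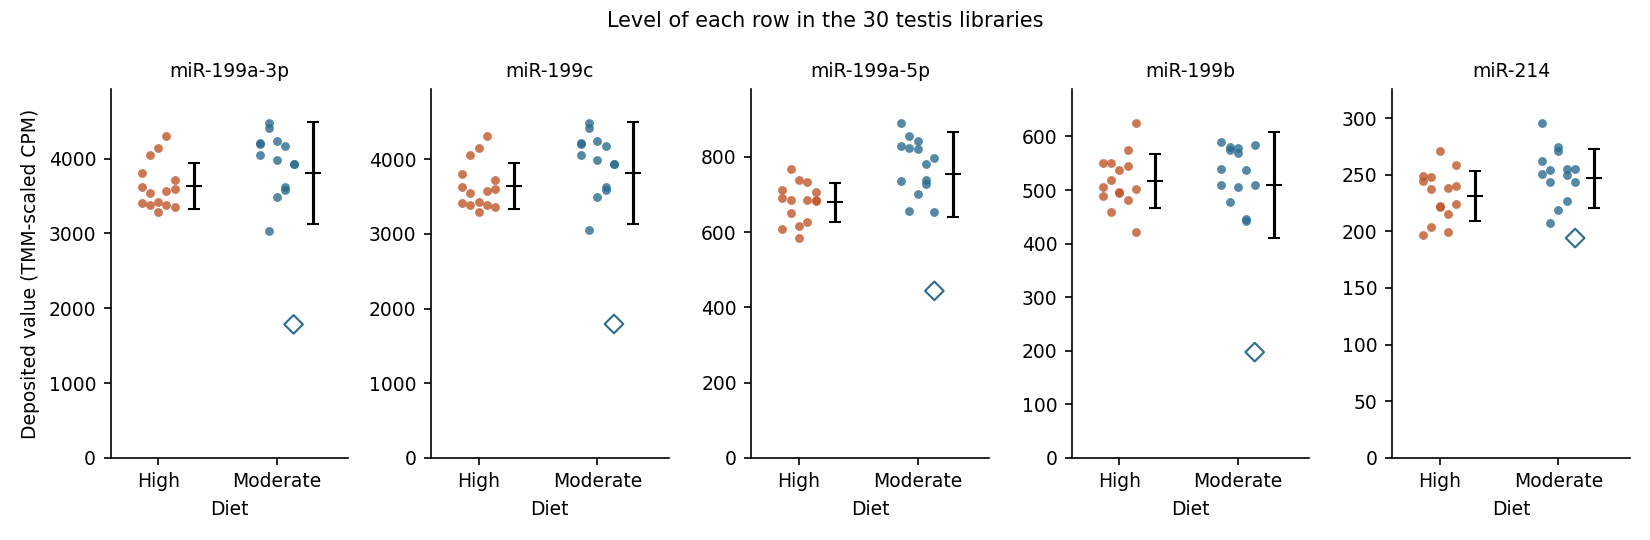
Level of each member in every library, in deposited units (TMM-scaled CPM, axes from 0), with High left of Moderate, bars for the mean ± SD and an open diamond for Moderate replicate 5. All High points of miR-199a-5p lie below the Moderate median of 782 units, and the groups overlap for every member.

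By mean over the 30 libraries, miR-199c ranked 25, miR-199a-3p 26, miR-199a-5p 64, miR-199b 77 and miR-214 98 among the 1030 miRNAs. The order miR-199a-3p, miR-199a-5p, miR-199b, miR-214 is one of reads, corrected neither for length nor for how well the library kit captures each small RNA. Counted without miR-199c, which nearly repeats miR-199a-3p, the other 4 summed to 4666 to 5751 units in High and 2620 to 6130 units in Moderate testes. Their sum made up a median of 0.537% of reads in High and 0.561% in Moderate libraries.

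miR-199c could not be measured apart from miR-199a-3p. Its values ranged from 3295 to 4312 units with a median of 3573 in High libraries, and from 1793 to 4492 units with a median of 3992 in Moderate libraries. In all 30 libraries it exceeded miR-199a-3p, by 0.150% to 0.471% of the value, or 17.7 to 226 reads. It was the only member with a fraction of a read, which it had in 17 libraries. No label or header says how reads matching several miRNAs were assigned, so their agreement supports nothing. Counts over 5 members below hold this pair as separate entries, and the counts over 4 leave miR-199c out.

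The other miRNAs annotated in these hairpin genes were near the detection limit. miR-3120, whose gene overlaps MIR214, had 0 to 3 reads per library, 23 in all in High and 14 in Moderate testes. miR-3604, whose genes overlap MIR199A-2 and MIR199B, had 0 to 2 reads per High library, 5 in all, and 0 to 1 per Moderate library, 1 in all. A library listing 0 could still hold 3 reads by counting error, which corresponded to 0.138 to 1.43 units by library. miR-214 itself rested on 408 reads in Moderate replicate 5 and up to 5220 reads elsewhere, far above that limit.

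The first comparison asked whether the plane of nutrition changed the level of these miRNAs. No member passed the threshold of 0.05 in limma with Benjamini-Hochberg adjustment over all tested miRNAs. That is 0 of 5 (0 of 4 without miR-199c), against 19 of 387 tested miRNAs (4.91%; 10 of them lower, 2.58%, and 9 higher, 2.33%), and none of the 5 had an unadjusted p under 0.05. miR-199a-5p had a log2 fold change, High minus Moderate, of -0.14 (SE 0.07, 95% interval -0.28 to 0.01, adjusted p = 0.270 in limma). miR-214 had -0.09 (SE 0.06, -0.21 to 0.03, limma adjusted p = 0.397) and miR-199a-3p -0.04 (SE 0.09, -0.22 to 0.14, limma adjusted p = 0.829). miR-199b had 0.05 (SE 0.10, -0.16 to 0.27, limma adjusted p = 0.812). The intervals leave room for a change of either sign in each of them.

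With Moderate replicate 5 left out, an alternative added after its values were seen, miR-199a-5p fell with the High diet. Its log2 fold change was then -0.19 (SE 0.05, 95% interval -0.29 to -0.09, limma adjusted p = 0.0114), so the level fell by 12.3%. It was the only one called, 1 of 5 (1 of 4 without miR-199c), against 45 of 385 tested miRNAs (11.7%), of which 26 (6.75%) were lower and 19 (4.94%) higher. miR-199a-3p had a log2 fold change of -0.12 (SE 0.05, limma adjusted p = 0.124), miR-214 also -0.12 (SE 0.05, limma adjusted p = 0.137) and miR-199b -0.04 (SE 0.05, limma adjusted p = 0.670). Each sign was thus negative in these 29 libraries, with miR-199a-5p alone past the threshold. Whether miR-199a-5p differed from the other members in its change is the question of the ratios given further on.

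The call of miR-199a-5p depended on that library, on the scaling and on the diet label. Over all 30 libraries, edgeR's quasi-likelihood test on recovered reads gave a log2 fold change of -0.17 (adjusted p = 0.0532; 0 of 5 members, against 9.52% of miRNAs) and DESeq2 -0.15 (adjusted p = 0.0708; 0 of 5, against 5.49%). In the 29 libraries without Moderate replicate 5, edgeR gave -0.18 (adjusted p = 0.0139; 1 of 5, against 12.6%) and DESeq2 -0.18 (adjusted p = 0.00642; 1 of 5, against 7.16%). Within the libraries under 12 M reads, also without that library, limma gave -0.19 (adjusted p = 0.0315; 1 of 5, against 8.09%). Scaled by library totals alone, the log2 fold change was 0.08 over 30 libraries, where the median of all miRNAs lay at 0.21 against 0.03 under TMM. The same scaling without Moderate replicate 5 gave -0.12 (limma adjusted p = 0.126). By the diet in the titles it was 0.06 (limma adjusted p = 0.981), and 0.0% of all tested miRNAs passed. In the 12 libraries with the same diet in both labels it was -0.10 (limma adjusted p = 0.775). Without Moderate replicate 5 it was -0.23 there (limma adjusted p = 0.226). No tested miRNA passed in either of these fits.

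**Figure D2:**
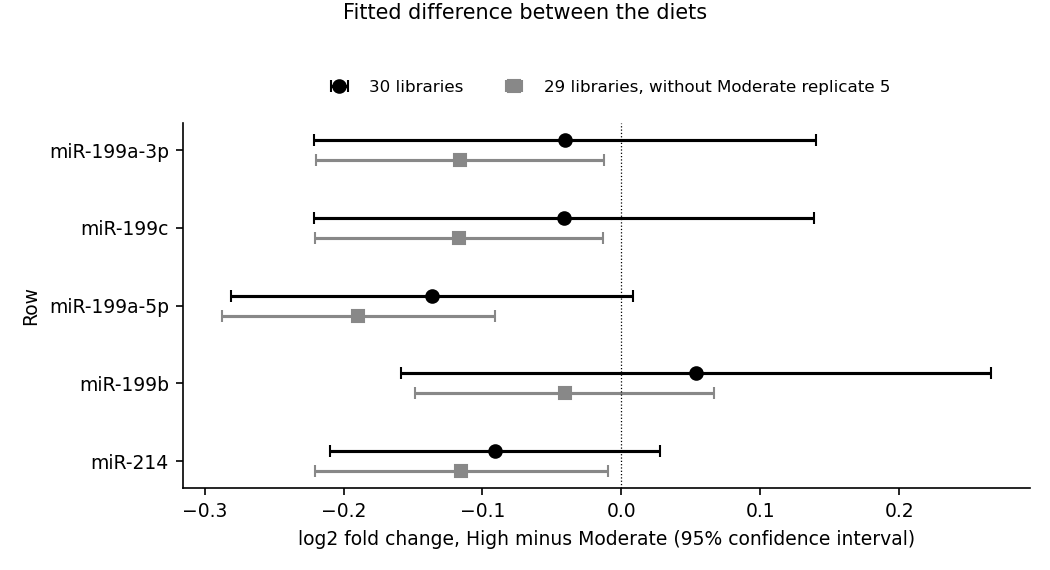
Fitted log2 fold change of each member, High minus Moderate, on the log2(value + 0.5) scale, with 95% confidence intervals over all 30 libraries and over 29 libraries without Moderate replicate 5. The interval of miR-199a-5p runs from -0.28 to 0.01 with that library and from -0.29 to -0.09 without it.

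A ratio of 2 miRNAs within a library does not depend on how the library was scaled. The entry miR-199a-3p exceeded the entry miR-199a-5p in all 30 libraries. Since miR-199c held nearly the same values as miR-199a-3p, the 3p reads cannot be assigned to the miR-199a hairpins alone. The ratio is thus one of 2 entries, and need not be that of the arms of the same hairpins. The linear ratio of 3p to 5p ranged from 4.86 to 6.27 with a median of 5.33 in High libraries, and from 4.02 to 6.02 with a median of 4.96 in Moderate libraries. The lowest ratio was that of Moderate replicate 5, and 13 of 15 High libraries lay above the Moderate median. The mean log2 ratio was 2.42 in High and 2.33 in Moderate testes, a difference of 0.10 (SE 0.04, two-sided permutation p = 0.0279, adjusted p = 0.0558 over the 4 ratios). The difference was 0.07 without Moderate replicate 5 (SE 0.04, permutation p = 0.0557, adjusted p = 0.111). Among the 4 ratios, that of miR-199b to miR-199a-5p was added after the values were seen. Its smaller p lowers both adjusted p given here for miR-199a-3p to miR-199a-5p. An adjustment without the added ratio was not run.

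The ratio of miR-199a-3p to miR-199a-5p therefore stayed short of the threshold in the full set, and several libraries moved it. It passed when any of 8 libraries was left out by itself (High replicates 6, 10, 14 and 15, Moderate replicates 11, 12, 14 and 15). The adjusted permutation p was then between 0.00928 and 0.0484. In each of these 8 cases the added ratio of miR-199b to miR-199a-5p had the smaller p, which lowers these adjusted p too. Whether the ratio would pass there without the added ratio was not tested. In the 12 libraries with the same diet in both labels the difference was 0.18 (exact permutation p = 0.00216, the smallest that 6 against 6 allow, adjusted p = 0.00866), with all 6 High libraries above the Moderate median. By the diet in the titles it was 0.05 (permutation p = 0.277, adjusted p = 0.329). It was 0.11 under 12 M reads (permutation p = 0.0417, adjusted p = 0.0834). The 6 deeper libraries gave 0.06 (exact permutation p = 0.667).

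miR-214 was set against each miR-199a entry in the same way. Its linear ratio to miR-199a-5p ranged from 0.271 to 0.380 in High libraries and from 0.295 to 0.437 in Moderate libraries. The highest value belonged to Moderate replicate 5. The mean log2 ratio differed by 0.05 (SE 0.05, permutation p = 0.390, adjusted p = 0.520), or by 0.07 without that library (SE 0.04, permutation p = 0.104, adjusted p = 0.139). Against miR-199a-3p the linear ratio was 0.04998 to 0.0719 in High and 0.0543 to 0.109 in Moderate libraries, and the log2 difference was -0.05 (SE 0.07, permutation p = 0.524, adjusted p = 0.524). With Moderate replicate 5 left out that difference was 0.0012 (SE 0.05, permutation p = 0.981, adjusted p = 0.981). Neither ratio was shown to change with diet, nor do these tests show that it stayed level.

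The ratio of miR-199b to miR-199a-5p was added after the values were seen, so its p is no independent evidence. In High libraries miR-199b stood at 0.595 to 0.916 of miR-199a-5p with a median of 0.755, and in Moderate libraries at 0.445 to 0.780 with a median of 0.692. The groups overlapped, with 13 of 15 High libraries above the Moderate median. The mean log2 ratio was -0.40 in High and -0.59 in Moderate testes, a difference of 0.19 (SE 0.07, permutation p = 0.00492, adjusted p = 0.0197 over the 4 ratios). The difference was 0.15 without Moderate replicate 5 (SE 0.05, permutation p = 0.0101, adjusted p = 0.0405).

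This ratio passed with each of the 30 libraries left out in turn, with adjusted permutation p between 0.00216 and 0.0405. It was larger in the 12 libraries with the same diet in both labels, at 0.38 (exact permutation p = 0.0108, adjusted p = 0.0216). Moderate replicate 5, which had the lowest ratio of all 30 libraries, is among those 12. Under 12 M reads it was 0.21 (permutation p = 0.0103, adjusted p = 0.0410), or 0.16 without Moderate replicate 5 (adjusted p = 0.0710 by the same permutation test). In the 6 deeper libraries it was 0.17 (exact permutation p = 0.133, the smallest that 4 against 2 libraries allow). By the diet in the titles it was 0.11 and did not pass (permutation p = 0.138, adjusted p = 0.281).

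**Figure D3:**
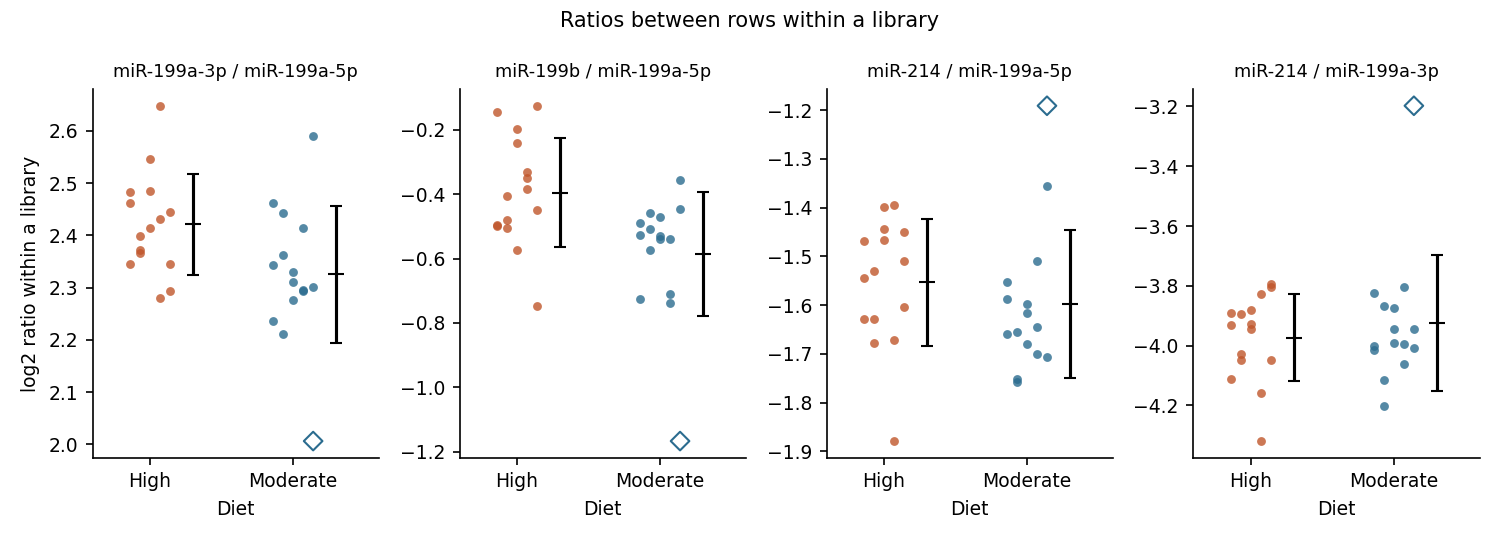
The 4 log2 ratios between members within each library, with High left of Moderate, bars for the mean ± SD and an open diamond for Moderate replicate 5. The ratio of miR-199b to miR-199a-5p has means of -0.40 in High and -0.59 in Moderate testes, and that of miR-199a-3p to miR-199a-5p 2.42 in High and 2.33 in Moderate testes.

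Across calves, the 2 miR-199a entries and miR-214 were correlated. Over the 30 libraries on the log2(value + 0.5) scale, miR-199a-3p and miR-199a-5p had Pearson r = 0.86 and Spearman rho = 0.82 (adjusted permutation p = 4.00e-05 each, over 12 coefficients, from the smallest p that 100000 resamples allow). The 2 miR-199a entries still had r = 0.76 without the 2 libraries farthest from the median of miR-199a-3p. Their r was 0.65 within the High and 0.94 within the Moderate diet, or 0.77 within Moderate without replicate 5. miR-199a-5p and miR-214 had r = 0.71 and rho = 0.71 (adjusted permutation p = 6.00e-05 and 0.000140), with r = 0.62 without the 2 farthest libraries. For this pair r was 0.47 within High and 0.81 within Moderate, or 0.70 within Moderate without replicate 5. Libraries with more of one arm of miR-199a also held more of the other arm and of miR-214.

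miR-199a-3p and miR-214 had r = 0.63 and rho = 0.65 (adjusted permutation p = 4.00e-05 and 0.000274), with r = 0.65 without the 2 farthest libraries. For this pair r was 0.37 within High and 0.79 within Moderate, or 0.71 within Moderate without replicate 5. The correlations of these 3 miRNAs thus remained above 0.6 in the 29 libraries without Moderate replicate 5, where r was 0.77, 0.67 and 0.62 for the pairs in the order given. Under 12 M reads without that library r was 0.75, 0.72 and 0.67, and above 12 M reads (6 libraries) it was 0.88, 0.56 and 0.73. All values share the scaling of their library.

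For miR-199b, the correlations varied with the diet and with Moderate replicate 5. With miR-199a-3p it had r = 0.85 and rho = 0.59 (adjusted permutation p = 0.000140 and 0.000920), but r = 0.51 without Moderate replicate 5 and 0.48 without the 2 farthest libraries. Within High it had r = 0.21, and within Moderate 0.95, or 0.73 without replicate 5. With miR-199a-5p it had r = 0.71 and rho = 0.51 (adjusted permutation p = 0.000630 and 0.00583), and r = 0.42 without Moderate replicate 5. For that pair r was 0.10 within High and 0.92 within Moderate, or 0.69 within Moderate without replicate 5. The difference between the diets in these correlations was not tested.

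The link of miR-199b with miR-214 was the weakest of the 6 pairs. Over 30 libraries it had r = 0.35 and rho = 0.18 (adjusted permutation p = 0.0644 and 0.340), and r = 0.07 without Moderate replicate 5. Within High r was -0.42 and within Moderate 0.69, or 0.47 without replicate 5. Scaled by library totals alone, r was 0.94 with Moderate replicate 5 and 0.29 without it, so that value rests on this library.

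**Figure D4:**
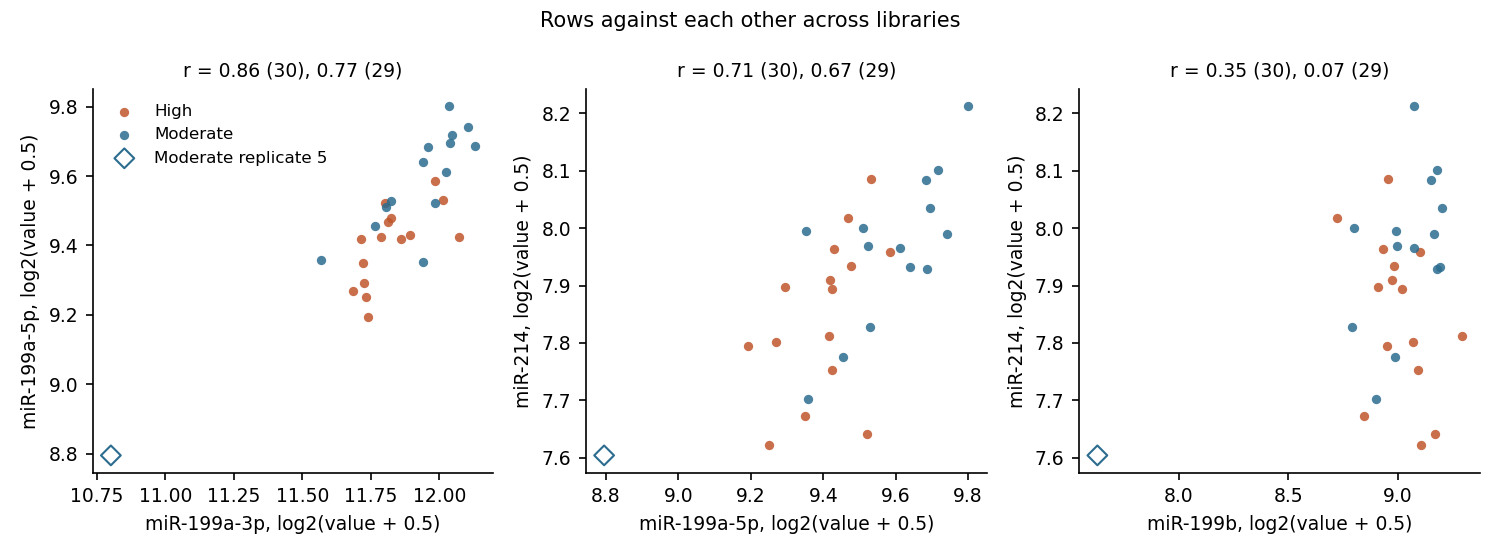
Log2(value + 0.5) of pairs of members across the 30 libraries, coloured by diet, with Moderate replicate 5 as an open diamond and Pearson r over 30 and 29 libraries above each panel. miR-199a-3p and miR-199a-5p have r = 0.86 with that library and 0.77 without it, and miR-199b and miR-214 have 0.35 with it and 0.07 without it.

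Among the other tested miRNAs, those whose levels followed the members most closely were found by Spearman rho over the 30 libraries, as a description. For miR-199a-3p they were miR-411c-5p (rho = 0.75), miR-380-3p (0.73) and miR-136 (0.71). For miR-199a-5p they were miR-411c-5p (0.76), miR-493 (0.68) and miR-145 (0.66). For miR-214 they were miR-411c-5p (0.71), miR-487a (0.68) and miR-376b (0.65). For miR-199b they were miR-152 (0.64), miR-335 (0.49) and miR-99a-3p (0.49). The order depended in part on Moderate replicate 5. In the other 29 libraries the first 3 of miR-199a-3p were the same, with rho of 0.73, 0.70 and 0.68. For miR-199a-5p they were miR-411c-5p (0.73), miR-320a (0.67) and miR-130a (0.67). For miR-214 they were miR-127 (0.68), miR-411c-5p (0.68) and miR-487a (0.65), and for miR-199b miR-152 (0.60), miR-125a (0.55) and miR-1247-5p (0.48). miR-411c-5p was thus among the first 3 of both miR-199a entries and of miR-214 with and without that library. Libraries share their scaling in all these values.

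Other miRNAs found in stromal cells, though not only there, were set beside the members. The list held miR-100, miR-125b, miR-143, miR-145, miR-152, miR-21, miR-22, miR-23b, miR-24 and miR-27b, with 13 of 14 entries tested. In limma, 2 of 13 were higher in High testes, against 9 of 387 tested miRNAs (2.33%), and 0 were lower. The median log2 fold change was 0.05, against 0.03 over all tested miRNAs. miR-22-3p, a miRNA found in many tissues, averaged 12517 units in High and 10149 units in Moderate testes (log2 fold change 0.30, limma adjusted p = 0.0260). miR-27b, known from blood vessels and fat cells, averaged 23806 units in High and 20362 units in Moderate testes (log2 fold change 0.23, limma adjusted p = 0.0409). Over the 30 fits that each left out 1 library, miR-22-3p passed in 29 and miR-27b in 12. In the fit without Moderate replicate 5, miR-22-3p had a log2 fold change of 0.28 (limma adjusted p = 0.0145) and miR-27b of 0.19 (limma adjusted p = 0.0123).

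Smooth muscle miRNAs did not pass the test. miR-143 had a log2 fold change of -0.11 and miR-145 of -0.15, with limma adjusted p of 0.544 and 0.529. Without Moderate replicate 5 they had -0.09 and -0.25, with limma adjusted p of 0.607 and 0.106. The members other than miR-199c had a median log2 fold change of -0.07, and of -0.12 without Moderate replicate 5, against 0.03 and 0.0032 over all tested miRNAs.

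Markers of other cell types were counted beside the members, in the fit that called 4.91% of all tested miRNAs. Of the tested entries, limma called 0 of 2 endothelial, 0 of 4 epithelial, 0 of 7 leukocyte, 0 of 3 red blood cell, 0 of 3 striated muscle, 0 of 6 neural, 0 of 8 spermatogonial and 0 of 2 Sertoli and gonadal somatic miRNAs. Of 3 miRNAs known in mouse from meiotic and later germ cells, 2 were higher in High testes, against 2.33% of all tested miRNAs. They were miR-34b (7.65 units in High and 4.74 units in Moderate testes, limma adjusted p = 0.0313) and miR-34c (113 units in High and 64.6 units in Moderate testes, limma adjusted p = 0.0260). The third, miR-449a, had a log2 fold change of 0.02 (11.7 units in High and 11.9 units in Moderate testes, limma adjusted p = 0.949). The median log2 fold change of the list was 0.73, that of miR-34b. That list summed to 90.5 to 265 units in High and 22.8 to 185 units in Moderate testes.

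In the 29 libraries in which miR-199a-5p passed, 11.7% of all tested miRNAs were called (4.94% higher). The list of meiotic and later germ cell miRNAs still had 2 of 3 higher. The leukocyte list had 1 of 7 higher and the striated muscle list 1 of 3. These were miR-146b (1146 units in High and 498 units in Moderate testes, limma adjusted p = 0.0358) and miR-499 (6.62 units in High and 4.90 units in Moderate testes, limma adjusted p = 0.0127). In the leukocyte list 5 of the 7 log2 fold changes were negative, with a median of -0.06, against 0.0032 over all tested miRNAs. In the striated muscle list 2 were positive and 1 negative, with a median of 0.04. With miR-146b included, the leukocyte list summed to 2512 to 6747 units in High and 2292 to 3705 units in Moderate testes. The epithelial list summed to 11.5 to 17.4 units in High and 10.7 to 24.8 units in Moderate testes. The striated muscle miRNAs miR-1 and miR-206 were at 0 in every library. The part of these cell types in the level of miR-199a-5p was not tested.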

How the data were processed

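Testis small RNA of 30 calves was measured, with 1 library per calf. Per the submitters' processing notes, edgeR 3.5 and R 3.4 were used beside cutadapt 2.6 and FastQC 0.11.8. Neither aligner nor genome build nor miRNA reference is given in the sources used here. The table the authors deposited holds a normalized signal, TMM-scaled CPM, as worked out from its values. Dividing each column by what 1 read is worth recovered reads that were whole, within 0.02 read, for 95.3% of 18379 values above 0. TMM factors from those reads differed from the implied ones by at most 0.000219 (natural log). Fractional reads occurred in 58 miRNAs.

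Groups follow the diet characteristic. The main test was limma 3.58.1 in R 4.3.3, with the variance modelled on the mean, on log2(value + 0.5), on miRNAs that reached 1 unit in 15 or more libraries, with Benjamini-Hochberg adjustment and a threshold of 0.05. The pseudocount understates changes of low miRNAs. Alternatives were edgeR 4.0.16 (quasi-likelihood) and DESeq2 1.42.0 on recovered reads, other scalings, pseudocount, filter, depth and labels. Ratios were tested two-sided by permutation (100000 resamples in scipy 1.17.1, exact where a group had fewer than 10 libraries). Correlations were tested two-sided by permutation with 100000 resamples in numpy 2.4.6. limma, edgeR and the permutation test of ratios were tried on simulated data, while DESeq2 and the permutation of correlations were not.

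Named miRNAs were the members, the 3 most alike to each, the stromal list, and up to 2 of smallest p in other lists. The members and lists were chosen with earlier results of these data known. The labels give 15 calves per diet, and p-values of the diet comparisons set the difference between diets against the spread between these libraries. The limit set by a count of 0 covers counting error only, since reads carry no molecular identifiers.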

Additional observations from a re-analysis of the deposited data

How the results depend on the processing

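No paired analysis was possible because each calf gave 1 library and replicate numbers were assigned in accession order. Scaling by library totals alone turned the log2 fold changes (High minus Moderate) of miR-199a-3p to 0.17, miR-199a-5p to 0.076, miR-199c to 0.17, miR-214 to 0.12, miR-143 to 0.10 and miR-145 to 0.056. It raised r of miR-199b and miR-214 to 0.94. The diet in the titles gave 0.11, 0.059, 0.11 and 0.0072 for miR-199a-3p, miR-199a-5p, miR-199c and miR-214, 0.16 for miR-145, -0.019 for miR-22-3p, and log2 ratio differences of -0.051 for miR-214 to miR-199a-5p and 0.11 for miR-199b to miR-199a-5p. The 12 libraries with the same diet in both labels gave 0.086 for miR-199a-3p, 0.085 for miR-199c, 0.0047 for miR-145, 0.18 for the ratio of miR-199a-3p to miR-199a-5p (0.14 without Moderate replicate 5) and -0.0079 for miR-214 to miR-199a-5p. The 6 deeper libraries gave 0.10 for miR-214 to miR-199a-3p and 0.17 for miR-199b to miR-199a-5p. The cause of these changes was not tested.

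Without Moderate replicate 5, in alternatives added after seeing the data, miR-199a-5p had log2 fold changes of -0.18 (edgeR), -0.18 (DESeq2) and -0.19 (limma, under 12 M reads), and miR-199b of -0.032, -0.031 and -0.032, with 1 of 5 members past the threshold each time. Under 12 M reads the ratio of miR-199b to miR-199a-5p was then 0.16. Against 19 in the main test, 36 miRNAs passed in edgeR, 46 in DESeq2, 3 under 12 M reads and 0 without the filter, by library totals, by titles or in the 12 libraries. In limma these counts of 0 had 104, 61, 11 and 43 miRNAs at an unadjusted p under 0.05. Without Moderate replicate 5, 31 passed by library totals, 48 in edgeR, 60 in DESeq2, 31 under 12 M reads and 0 in the libraries with the same diet (69 at an unadjusted p under 0.05). Of the other stromal and cell-type lists, 1 miRNA passed under 12 M reads and 0 without the filter, by library totals, by titles, and in the 12 libraries with or without replicate 5.

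Leaving out 1 library at a time gave 0 to 45 miRNAs past the threshold (0 without High replicate 5, 45 without Moderate replicate 5), 0 to 1 members and 0 to 6 of the lists. miR-199a-5p ranged from -0.19 to -0.12 and miR-199b from -0.041 to 0.074. The log2 ratio difference of miR-199a-3p to miR-199a-5p ranged from 0.073 to 0.11, and that of miR-214 to miR-199a-3p from -0.070 to 0.0012. A sum over letters of each arm was not run, since miR-199b and miR-199c carry no arm in their names and miR-199c shares the values of miR-199a-3p.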
